A study of Homo sapiens with 30 samples.

Results

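The simple keratins KRT7, KRT8, KRT18 and KRT19 were followed in RWPE1 cells, an immortalized line of normal human prostate epithelium, and in VCaP, a prostate cancer line. The members were taken by name and are 4 of the 26255 genes in the deposited expression table. RNA-seq compared 4 RWPE1 lines made with retroviruses. RWPE1-vector carried the empty plasmids pQCXIH and pBabe-puro. RWPE1-ERG carried pQCXIH with FLAG-tagged ERG, isoform 1, beside empty pBabe-puro. RWPE1-mAKT carried empty pQCXIH and pBabe-Puro with myristoylated AKT (mAKT), which is constitutively active, and RWPE1-ERG/mAKT carried both ERG and mAKT. All 4 lines thus held a hygromycin and a puromycin resistance plasmid and were kept under both drugs. ATAC-seq, which reads open chromatin, is reported for all of these lines but RWPE1-vector. ERG ChIP-seq came from RWPE1-ERG/mAKT cells and from VCaP cells treated with DMSO, ERK2 ChIP-seq from RWPE1-vector and RWPE1-ERG cells, and ChIP-seq of the repressive histone mark H3K27me3 from both of those and from RWPE1-ERG S96E cells, whose ERG carries a phosphomimetic change. The labels of the ERK2 and H3K27me3 samples name the pQCXIH plasmid alone. The lines are drug-selected populations of a single parent line.

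Keratins are the intermediate filament proteins of epithelial cells, and each filament is built from pairs of 1 type I and 1 type II chain. KRT8 (type II) and KRT18 (type I) form the pair that simple, single-layered epithelia make first. KRT7 (type II) and KRT19 (type I) are further simple keratins. In the prostate gland, KRT8 and KRT18 mark the luminal secretory cells, whereas KRT5 and KRT14 mark the basal cells, with KRT15 and KRT17 also on the basal side.

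The RNA-seq table gave 1 FPKM value (fragments per kilobase of transcript, scaled to the number of mapped fragments) for each line, pooled by the authors over 3 libraries. There was therefore no spread between libraries to set a difference against, and every RNA difference below is a description of these pooled values without a test. A gene is called higher or lower when it differed at least 1.5-fold on the log2(FPKM + 1) scale. The labels were checked first. ERG was at 0.264 FPKM in RWPE1-vector and 0.435 in RWPE1-mAKT cells against 358 in RWPE1-ERG and 328 in RWPE1-ERG/mAKT cells, and AKT1 was at 58.7, 64.2, 156 and 281 FPKM in the vector, ERG, mAKT and ERG/mAKT lines. Both genes were thus high in the lines that carried them. Depth per library was unknown for RNA. The FPKM summed over all genes was 1246090 in RWPE1-ERG cells and between 846058 and 971508 in the other lines, and genes named MIR or SNOR took from 25.6% (RWPE1-vector) to 42.0% (RWPE1-ERG) of that sum. The median gene nevertheless had a log2 ratio of −0.01 between RWPE1-ERG and RWPE1-vector cells.

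All 4 simple keratins had their highest level in RWPE1-ERG cells, and 3 of the 4 were lower again by at least 1.5-fold where mAKT was expressed beside ERG. KRT7, the most abundant, stood at 2463 FPKM in RWPE1-vector, 4356 in RWPE1-ERG, 2082 in RWPE1-mAKT and 2124 in RWPE1-ERG/mAKT cells. Only RWPE1-ERG cells stood apart, and the 2 lines with mAKT were the lowest. KRT8 was at 622 FPKM in RWPE1-vector, 1769 in RWPE1-ERG, 671 in RWPE1-mAKT and 921 in RWPE1-ERG/mAKT cells. Its partner KRT18 was at 817, 1843, 987 and 958 FPKM in the same order. For KRT8 the RWPE1-ERG/mAKT value lay above both lines without ERG, whereas for KRT18 it lay between them and differed little from RWPE1-mAKT cells. KRT19, a small keratin without the tail domain of the others, was at 367 FPKM in RWPE1-vector, 956 in RWPE1-ERG, 405 in RWPE1-mAKT and 654 in RWPE1-ERG/mAKT cells. It was the member that kept most of its ERG-associated level when mAKT was present.

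**Figure D1:**
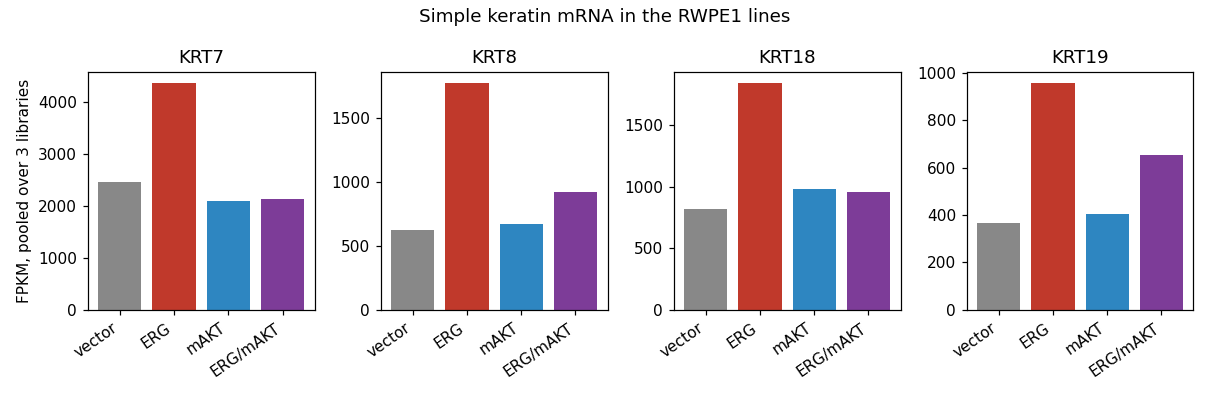
Bars give the FPKM of KRT7, KRT8, KRT18 and KRT19 (y axis, linear from 0, own scale in each panel) in the 4 RWPE1 lines (x axis), each the authors' value pooled over 3 libraries, so there are no error bars. In every panel the RWPE1-ERG bar is the tallest, and KRT19 keeps the tallest RWPE1-ERG/mAKT bar relative to it, at 654 against 956 FPKM.

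In RWPE1-ERG over RWPE1-vector cells the log2 ratio was 0.82 for KRT7, 1.51 for KRT8, 1.17 for KRT18 and 1.38 for KRT19, so 4 of 4 members were higher and 0 lower. Over all 12375 genes that reached 1 FPKM in either line, 7.42% were higher and 2.96% lower. In FPKM the change ran from 1.77-fold for KRT7 to 2.84-fold for KRT8. If every line was instead scaled to an equal FPKM sum, all log2 ratios of this comparison shifted by −0.56, which left KRT8, KRT18 and KRT19 higher and put KRT7 within the threshold, at 0.26. In RWPE1-mAKT over RWPE1-vector cells, 0 of 4 members were higher, beside 2.23% of genes, and 0 of 4 were lower, beside 1.95%. The log2 ratios there were −0.24, 0.11, 0.27 and 0.14 for KRT7, KRT8, KRT18 and KRT19. Expression of mAKT without ERG thus left each member within 1.5-fold of its level in RWPE1-vector cells.

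In RWPE1-ERG/mAKT over RWPE1-ERG cells, 3 of 4 members were lower, beside 6.94% of genes, and 0 higher, beside 4.26%, with log2 ratios of −1.04 for KRT7, −0.94 for KRT8 and −0.94 for KRT18. KRT19 lay just inside the threshold, at −0.55, or 0.684-fold in FPKM. With an equal FPKM sum the ratios shifted by 0.38 and KRT7 alone stayed past the threshold, with KRT8 at −0.56 and KRT18 at −0.57. In RWPE1-mAKT over RWPE1-ERG cells 4 of 4 members were lower, beside 7.48% of genes, and 0 higher, beside 3.49%, and with an equal FPKM sum 3 of 4 were, with KRT18 at −0.54. RWPE1-ERG/mAKT and RWPE1-mAKT cells differ by the ERG construct, but AKT1 FPKM also differed between them, at 281 against 156. In RWPE1-ERG/mAKT over RWPE1-mAKT cells 1 of 4 members was higher, beside 4.53% of genes, and 0 lower, beside 2.51%. That member was KRT19, with a log2 ratio of 0.69. KRT8 was just inside the threshold in this comparison at 0.46, and KRT7 and KRT18 were at 0.03 and −0.04. Against RWPE1-vector cells, the line with both constructs had KRT19 higher as 1 of 4 members, at 0.83, beside 5.52% of genes, with 0 lower, beside 3.4%, and KRT8 just inside the threshold at 0.56. These comparisons share lines with each other and are not independent.

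The lines form a layout of ERG against mAKT, so the ERG ratio can be read with and without mAKT. The part of the unequal AKT1 level of the 2 lines with mAKT was not tested. The log2 ERG ratio was smaller with mAKT than without by 1.5-fold or more for 4 of 4 members, beside 8.37% of the 12670 genes that reached 1 FPKM somewhere, and larger for 0, beside 4.38%. The difference, with mAKT minus without, was −0.79 for KRT7, −1.05 for KRT8, −1.22 for KRT18 and −0.69 for KRT19. This difference depended on the scaling, since with an equal FPKM sum it was −0.22, −0.47, −0.64 and −0.11 in the same order, and 1 of 4 members, KRT18, passed 1.5-fold. The members differed in what was left of the ERG ratio, since KRT19 and KRT8 kept 0.69 and 0.46 and KRT7 and KRT18 kept 0.03 and −0.04 on the log2 scale. Being highest in RWPE1-ERG cells was common, at 31.9% of genes. Being both higher in RWPE1-ERG over RWPE1-vector cells and lower in RWPE1-ERG/mAKT over RWPE1-ERG cells, as KRT7, KRT8 and KRT18 were with the deposited scaling, was seen for 3.75%.

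In pooled FPKM the ratio of a type II to a type I simple keratin differed between the lines, which was not tested. KRT8 over KRT18 in FPKM was 0.762 in RWPE1-vector and 0.680 in RWPE1-mAKT cells, and 0.960 in RWPE1-ERG and 0.961 in RWPE1-ERG/mAKT cells, so it was near 1 in both lines with ERG and lower in both without. KRT7 over KRT19 was 6.71 in RWPE1-vector, 4.56 in RWPE1-ERG, 5.14 in RWPE1-mAKT and 3.25 in RWPE1-ERG/mAKT cells. The table gave KRT8 and KRT18 the same locus, and in the annotation long alternative transcripts of KRT8 on the minus strand reach into KRT18 on the plus strand. Whether strand was used in counting is not given in the sources used here, so reads from the shared stretch cannot be told apart. The 3 pseudogene rows for these keratins that the table lists held at most 0.0289 FPKM in any line.

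Set against the whole keratin family, the simple keratins moved from a minor to a major share in RWPE1-ERG cells alone among the 4 lines. Keratin mRNA in total, over the 54 type I and type II genes of the table, was 14609 FPKM in RWPE1-vector, 13046 in RWPE1-ERG, 14784 in RWPE1-mAKT and 15528 in RWPE1-ERG/mAKT cells. The simple keratins made up 29.2% of it in RWPE1-vector, 68.4% in RWPE1-ERG, 28.0% in RWPE1-mAKT and 30.0% in RWPE1-ERG/mAKT cells. The basal keratins KRT5, KRT14, KRT15 and KRT17 together made up 63.0%, 28.5%, 64.2% and 61.3% in the same order. A share within the family does not depend on how each line was scaled. In FPKM, the 4 simple keratins summed to 4655 more in RWPE1-ERG than in RWPE1-vector cells, while the difference for the basal keratins was −5483 FPKM. Among the simple keratins themselves the mix moved less, since KRT7 was 57.7% of their sum in RWPE1-vector and 48.8% in RWPE1-ERG cells, and 45.6% in RWPE1-ERG/mAKT cells, where KRT19 had its largest part, 14.0%.

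**Figure D2:**
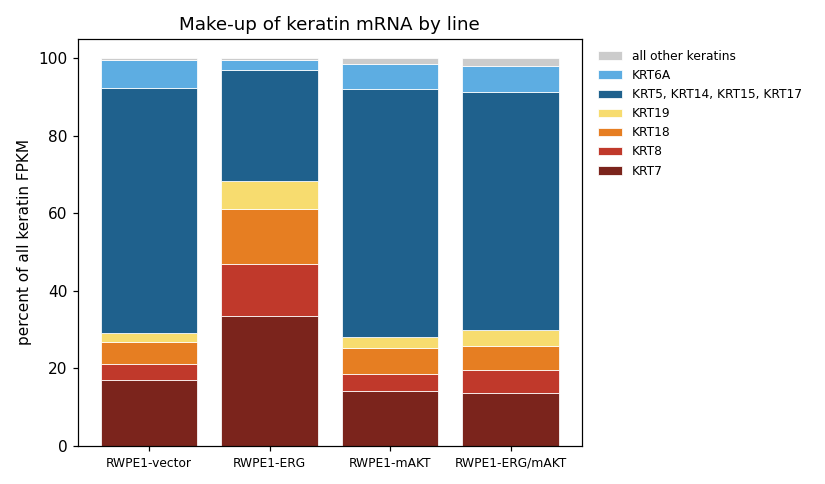
Stacked bars give the percent of all keratin FPKM (y axis) taken by each simple keratin (warm colours), by the basal keratins KRT5, KRT14, KRT15 and KRT17 together (dark blue), by KRT6A (light blue) and by all other keratins (grey) in the 4 RWPE1 lines (x axis). The warm part reaches 68.4% in RWPE1-ERG cells and lies between 28.0% and 30.0% in the other lines.

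KRT5, the basal type II chain, was at 3126, 1169.8, 3642 and 3519 FPKM in the vector, ERG, mAKT and ERG/mAKT lines, and KRT14, its type I partner, at 2936, 699.5, 2527 and 1185 FPKM. KRT8 over KRT5 was accordingly 0.199, 1.51, 0.184 and 0.262, with only RWPE1-ERG cells above 1. The log2 ratio of RWPE1-ERG to RWPE1-vector cells was −1.42 for KRT5, −2.07 for KRT14 and −0.81 for KRT17, opposite in sign to all 4 members. KRT15 was the exception on the basal side, with 33.3, 80.3, 53.8 and 280 FPKM and a log2 ratio of 1.24. KRT14 also differed from KRT5 in RWPE1-ERG/mAKT over RWPE1-mAKT cells, at −1.09 against −0.05.

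Of the stress and wound keratins, KRT6A was at 1075, 331, 946 and 1049.8 FPKM and KRT16 at 28.1, 7.25, 50.5 and 87.4 FPKM in the same order of lines, again lowest in RWPE1-ERG cells. KRT13, which marks stratified lining epithelium, was at 4.10 and 9.76 FPKM in the lines without mAKT and at 111 and 148 FPKM in RWPE1-mAKT and RWPE1-ERG/mAKT cells. KRT6B was at 5.26, 6.15, 14.2 and 22.6 FPKM. KRT80, an epithelial keratin outside the members, was at 10.8, 32.8, 8.48 and 12.6 FPKM, with a log2 ratio of 1.51 in RWPE1-ERG over RWPE1-vector cells. By the profile distance described below, its rank among 12667 genes was 86 for KRT8, 386 for KRT19, 1323 for KRT7 and 1388 for KRT18. Across the epithelial type I list, which includes KRT18 and KRT19, 4 of 8 genes with enough signal were higher and 3 lower in RWPE1-ERG over RWPE1-vector cells. Across the type II list, which includes KRT7 and KRT8, 3 of 6 were higher and 2 lower. Over all genes 7.42% were higher and 2.96% lower. The higher keratins outside the members were KRT13, KRT15 and KRT80. The 17 hair keratins were below 1 FPKM in every line. Type II over type I epithelial keratin FPKM was 1.00 in RWPE1-vector, 0.994 in RWPE1-mAKT and 0.973 in RWPE1-ERG/mAKT cells, but 1.43 in RWPE1-ERG cells, where type I FPKM summed to 5379 against 7305 in RWPE1-vector cells and type II to 7665 against 7303.

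**Figure D3:**
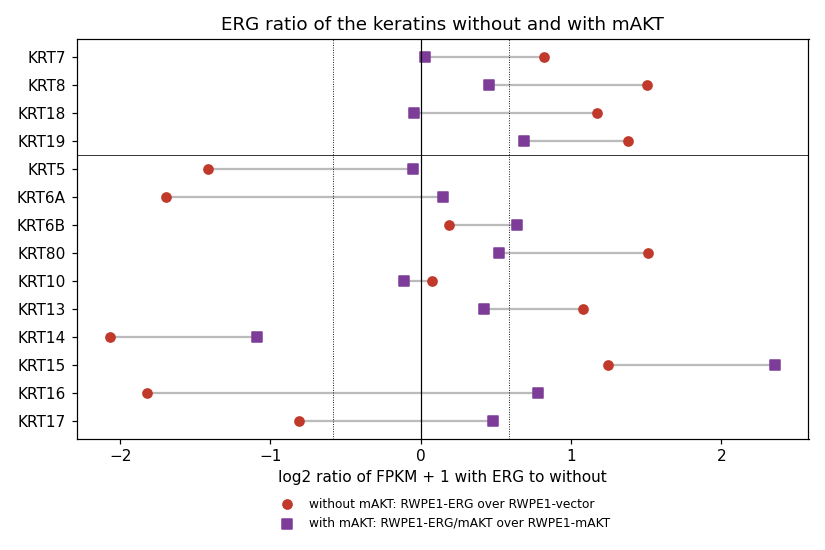
Each keratin with at least 5 FPKM in any line (y axis, members above the line) is shown by its log2 ratio of FPKM + 1 with ERG to without (x axis), as a red circle in the absence of mAKT and a purple square in its presence, with dotted lines at 1.5-fold. The circles of the 4 members lie between 0.82 and 1.51 and their squares between −0.04 and 0.69, each to the left of its circle.

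Of the luminal markers other than the keratins, none passed 1.5-fold with ERG. The secreted proteases KLK2 and KLK3 were listed at 0 in all lines. FOXA1, a pioneer factor of luminal cells, was at 3.24, 4.66, 3.28 and 3.19 FPKM in the vector, ERG, mAKT and ERG/mAKT lines. Of the 12 luminal markers, 4 were higher in RWPE1-ERG over RWPE1-vector cells, and these were the 4 members. "Luminal" is therefore used here only as the usual name of these keratins. Of the 15 luminal regulators and epithelial factors, 10 reached 1 FPKM in either line of that comparison, and 2 of these were higher and 2 lower. With both constructs the counts were one-sided, since 6 of 11 were higher and 0 lower both against RWPE1-vector and against RWPE1-ERG cells, beside 5.52% and 4.26% of all genes higher. They thus did not follow the simple keratins, of which 3 of 4 were lower in the second of these comparisons. ELF3, an epithelial ETS factor, was at 2.26, 5.81, 5.57 and 23.4 FPKM and was thus highest with both constructs, and GATA3 was at 1.52, 5.10, 2.21 and 3.12 FPKM, highest with ERG alone. KLF5, a regulator of basal progenitors, was at 58.3, 35.1, 56.0 and 57.4 FPKM, and KLF4 at 6.81, 3.90, 6.95 and 12.7 FPKM. GRHL2 was at 6.88, 6.69, 10.3 and 11.8 FPKM. Of the 8 basal markers, 5 were lower and 1 higher in RWPE1-ERG over RWPE1-vector cells. The 5 were KRT5, KRT14, KRT17, the transcription factor TP63, at 36.3 FPKM in RWPE1-vector and 21.3 in RWPE1-ERG cells, and the integrin ITGA6, at 125, 70.9, 116 and 67.2 FPKM in the 4 lines. The integrin ITGB4, at 379, 283, 339 and 186 FPKM, stayed within 1.5-fold there.

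Of the mesenchymal markers, 2 of the 5 that reached 1 FPKM, FN1 and CDH2, were also higher in RWPE1-ERG over RWPE1-vector cells, and 0 were lower. The 9 markers of that list summed to 827 FPKM in RWPE1-vector, 1295 in RWPE1-ERG, 423 in RWPE1-mAKT and 316 in RWPE1-ERG/mAKT cells, with 5 of 9 at or above 1 FPKM in any line, COL3A1 listed at 0 in all lines, and COL1A2, DCN and PDGFRB below 0.1 FPKM. Vimentin (VIM), the mesenchymal intermediate filament protein, was at 737, 1056, 366 and 288 FPKM, FN1 at 83.7, 228, 53.4 and 23.8 FPKM and CDH2 at 3.04, 7.38, 0.610 and 0.666 FPKM. VIM stayed within 1.5-fold in that comparison, at a log2 ratio of 0.52, as did ACTA2, at 1.19, 1.42, 1.30 and 0.883 FPKM, and COL1A1, at 2.05, 2.18, 1.93 and 1.78 FPKM. Like the members, VIM, FN1 and CDH2 were highest in RWPE1-ERG cells. Unlike the members, which stayed within 1.5-fold, they were lower by at least 1.5-fold in RWPE1-mAKT than in RWPE1-vector cells. The part of mesenchymal-like cells in the keratin values was not tested, and in bulk RNA a change in the share of cells of a kind and a change in mRNA per cell cannot be told apart. ENO2 was at 3.50, 6.99, 3.24 and 4.71 FPKM as 1 of 4 neuroendocrine markers at or above 1 FPKM, and the 3 endothelial markers summed to at most 0.293 FPKM and the leukocyte marker PTPRC to at most 0.00391 FPKM in any line.

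Genes for proteins that anchor keratin filaments differed in the comparisons with RWPE1-ERG cells, with a minority past 1.5-fold. Of 14 linker and desmosome genes, 0 were higher and 2 lower in RWPE1-ERG over RWPE1-vector cells, where 7.42% and 2.96% of all genes were. In RWPE1-ERG/mAKT over RWPE1-ERG cells 3 were higher and 0 lower, beside 4.26% and 6.94% of all genes, and in RWPE1-mAKT over RWPE1-ERG cells 4 were higher and 1 lower, beside 3.49% and 7.48%. DST, which ties keratin filaments to hemidesmosomes, was at 22.2, 13.3, 33.9 and 33.3 FPKM, and DSC3, a desmosomal cadherin, at 13.8, 8.78, 11.2 and 11.7 FPKM in the vector, ERG, mAKT and ERG/mAKT lines. DSP, the desmosomal plakin that binds keratin filaments, was at 52.2, 45.7, 66.3 and 78.2 FPKM, and DSG3 at 9.43, 6.82, 8.01 and 11.4 FPKM.

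Likeness of profile was measured as the root mean square distance between centred log2(FPKM + 1) values over the 4 lines, among 12667 other genes. For KRT7 the nearest genes were DLC1 (0.03), CTHRC1 (0.04) and PRKCDBP (0.04), and for KRT8 they were SCARNA13 (0.07), LOXL1 (0.07) and SNORA43 (0.08). KRT18 was nearest to GLRX (0.04), SERPINA1 (0.05) and SNORA54 (0.06), and KRT19 to PRSS22 (0.08), RHPN1 (0.09) and EPSTI1 (0.09). Among the members, KRT8 and KRT19 were the closest, at 0.14, which placed KRT19 24th of all genes for KRT8. KRT8 and KRT18, the filament pair, were at 0.22, and KRT7 and KRT19 were farthest at 0.38. Over 4 points many genes reach small distances.

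The chromatin lists were then searched within 20 kb of each gene, on hg19. KRT7 lies on chromosome 12 from 52626954 to 52642709 on the plus strand. KRT8 and KRT18 lie head to head on chromosome 12 within 1 locus of the table, 53290971 to 53346685, with the main KRT8 transcript starting at 53298860 on the minus strand and that of KRT18 at 53342902 on the plus strand. KRT19 lies on chromosome 17 from 39679869 to 39684641 on the minus strand, with KRT15 just downstream of it. Each list came from 1 library without a replicate, so presence and strength are descriptions. A fold enrichment is read within its own list, and values of different lists given together do not measure a change between lines.

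The start sites of KRT7, KRT8 and KRT18 lay in open chromatin in all 3 ATAC lists, and that of KRT19 in those of RWPE1-ERG and RWPE1-mAKT cells. Within the 3 windows the ATAC lists held 28 peaks in RWPE1-ERG, 22 in RWPE1-mAKT and 19 in RWPE1-ERG/mAKT cells. All 3 windows held a peak in each list, as did 88.4%, 87.3% and 83.1% of the windows of all genes. The lists differed in size, with 63354, 57999 and 42081 peaks. Merged, the peaks gave 28 sites, of which 17 were in all 3 lists. The start site of KRT7 was covered by a region of 2914 bp in RWPE1-ERG, 2823 bp in RWPE1-mAKT and 1486 bp in RWPE1-ERG/mAKT cells. The start of KRT18 was covered by 1416, 1342 and 1386 bp in the same order, and that of KRT8 by 574, 324 and 325 bp. KRT19 had the smallest regions, of 260 bp in RWPE1-ERG (fold enrichment 4.65) and 234 bp in RWPE1-mAKT cells (3.06), and its start was in no region of the RWPE1-ERG/mAKT list, although its FPKM was higher there than in RWPE1-mAKT cells. Of the 28 RWPE1-ERG peaks, 5 overlapped neither other list, or 17.9%, against 24.1% of the whole RWPE1-ERG list. These were 1 in KRT7, 3 in the KRT8 and KRT18 window, among them a peak in the last part of KRT18 and one 11198 bp upstream of it, and 1 in KRT13 within the KRT19 window. In the RWPE1-mAKT list 2 of 22 peaks, or 9.09%, overlapped neither other list, both in the KRT19 window, against 16.5% of that list, and in RWPE1-ERG/mAKT cells 0 of 19 did, against 5.81%.

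No ERG peak near the simple keratins had a q-value of 0.01 or below, in RWPE1-ERG/mAKT or in VCaP cells. In RWPE1-ERG/mAKT cells there were 2 near KRT7, 2 near KRT8 and KRT18 and 4 near KRT19, and all 3 windows held one, as did 30.2% of all gene windows. Their fold enrichment over input ran from 3.53 to 4.94, against a median of 3.53 in the list, and 28.3% to 90.6% of the list lay below them. None of the 8 had a q-value of 0.01 or below, beside 4.94% of the list. The strongest lay in the KRT7 window, with a fold enrichment of 4.94 and a −log10 q-value of 1.51. It lay inside a site open in all 3 ATAC lists. The other KRT7 peak lay 2286 bp upstream of the start, inside the large open region there. Near KRT8, 1 peak lay 2754 bp upstream of the main start in an open site, and another 19580 bp upstream in no ATAC region, both within the span of long KRT8 transcripts. The 4 peaks of the KRT19 window lay between 6287 and 14097 bp downstream of the KRT19 start, so none lay in or upstream of KRT19. The one at 14097 bp lay in an intron of the main transcript of the neighbouring gene KRT15. The others lay upstream of the main KRT15 start, within the span of other KRT15 transcripts. In VCaP cells 1 ERG peak was found, in an intron of KRT8, 1590 bp past its start, beside 21.3% of gene windows with a peak. Its fold enrichment was 3.37, below the median of 3.59 in its list. Its −log10 q-value was 0.58, and 28.2% of that list had a q-value of 0.01 or below. The KRT8 peak overlapped no peak of the RWPE1-ERG/mAKT list, of which 1.25% overlapped a VCaP ERG peak. ERG ChIP-seq of cells with ERG alone, the line with the highest keratin FPKM, is not analysed here.

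ERK2, the kinase at the end of the Ras/ERK pathway, was recorded at many places in these windows. In RWPE1-vector cells 13 peaks lay near KRT7, 7 near KRT8 and KRT18 and 11 near KRT19, and in RWPE1-ERG cells 18, 4 and 7. Peaks occurred in 68.2% and 24.2% of all gene windows in these lists, and in 83.5% and 68.0% of the windows of the 200 genes with the highest mean FPKM, which include KRT7, KRT8 and KRT18 but not KRT19. KRT7 stood high by count even so, since 18 or more peaks in RWPE1-ERG cells were found for 52 genes, or 0.198% of all and 0.5% of the 200 highest. KRT7 itself is counted in both shares. The windows of KRT5, KRT14, KRT15, KRT17 and KRT6A held 5, 0, 6, 3 and 0 peaks in that list, and the KRT15 window overlaps that of KRT19. A q-value of 0.01 or below was reached by 2 of 31 peaks in RWPE1-vector cells, or 6.45%, beside 0.741% of that list, and by 2 of 29 in RWPE1-ERG cells, or 6.90%, beside 3.11%. The strongest in RWPE1-ERG cells lay in an intron of KRT7, from 52634775 to 52635754, 8093 bp past the start, with a fold enrichment of 11.4, above 99.5% of its list, and a −log10 q-value of 15.4. The same intron held an ERK2 peak in RWPE1-vector cells, with a fold enrichment of 3.99. The other peak within that q-value lay over the 3′ UTR of KRT7, from 52642344 to 52643051, with a fold enrichment of 6.02. In RWPE1-vector cells the strongest lay in an intron of KRT19, from 39681877 to 39682210 and 2519 bp past the start, with a fold enrichment of 7.39, and RWPE1-ERG cells had a peak there with 4.10. The second had its summit between KRT19 and KRT15, from 39678602 to 39679216, with a fold enrichment of 5.54. The headers recorded 8393459 ChIP reads for RWPE1-vector and 15020233 for RWPE1-ERG cells, and the lists held 41276 and 5721 peaks. Counts and fold enrichments are therefore not comparable between these lists. Of the RWPE1-ERG ERK2 peaks, 9 of 18 near KRT7, 2 of 4 near KRT8 and KRT18 and 3 of 7 near KRT19 overlapped a RWPE1-vector peak, against 15.3% of the whole list. None of the 8 ERG peaks overlapped an ERK2 peak of RWPE1-ERG cells, beside 2.91% of the whole ERG list, and 1 of the 8, in the KRT7 window, overlapped one of RWPE1-vector cells, beside 3.56%.

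**Figure D4:**
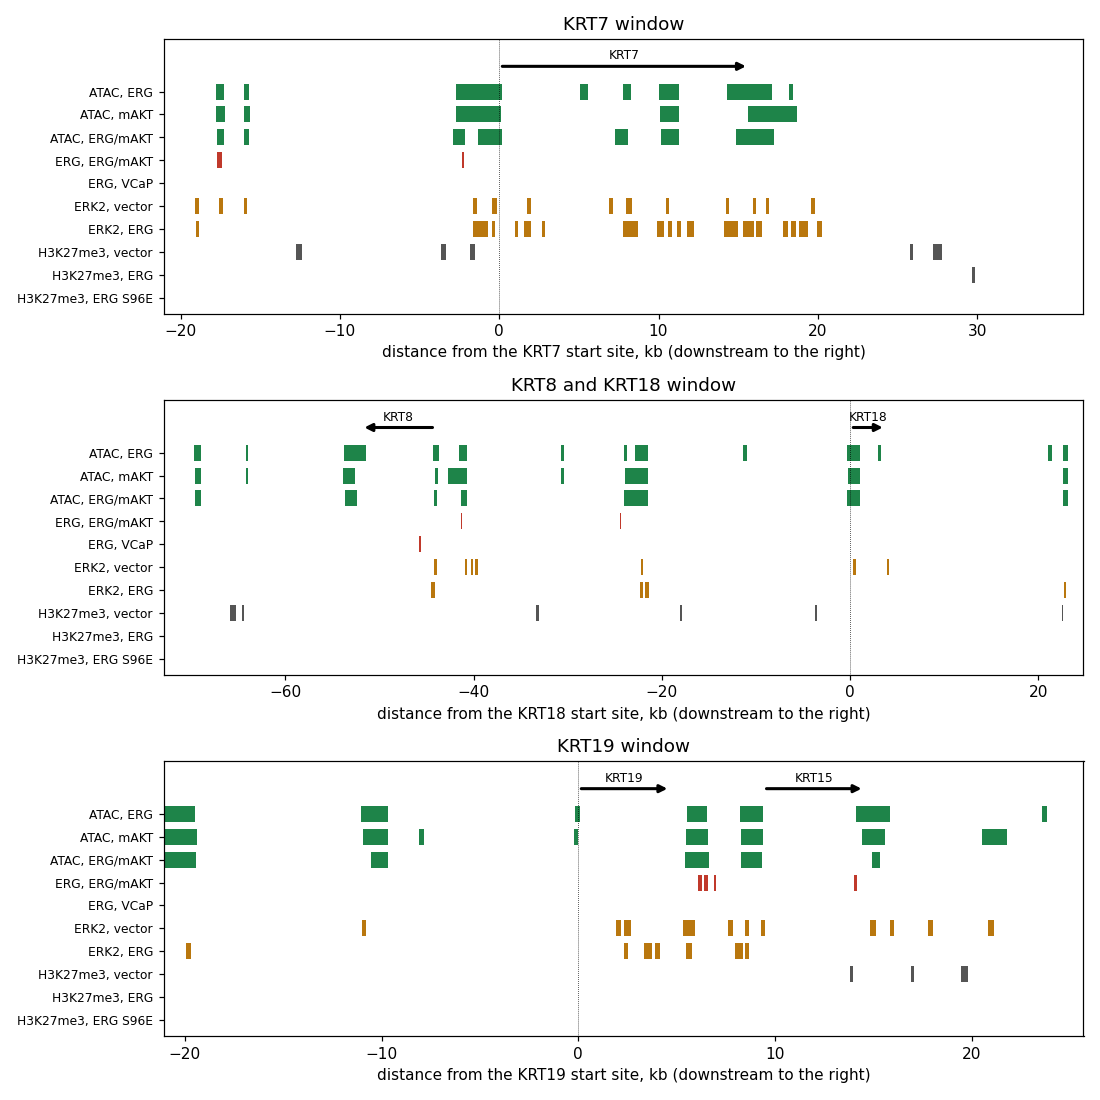
Bars mark the peaks of each list (rows, green ATAC, red ERG, ochre ERK2, grey H3K27me3, named by assay and line) by distance in kb from the start site of KRT7, KRT18 or KRT19 (x axis, downstream to the right), drawn to scale with a least width of 0.12 kb, and arrows show main transcripts. ERK2 bars of RWPE1-ERG cells are densest along KRT7, with 18 peaks, and the 4 red bars of the KRT19 window lie past the gene, towards and in KRT15.

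The sequences of selected regions are given on the plus strand of GRCh37, cut to 100 bases on both sides of the summit where the peak was wider than 200 bases. Capitals mark matches on either strand to TGACTCA (AP-1), AGGAAGTG or CGGAAGTG (ETS), GGAAGTGA (ETS/AP-1) or GTAAACA (FOX), where GGAAGTGA shares GGAAGTG with both ETS words. The first is the ERG peak nearest to the start of KRT7. Both ERG peaks shown were weak calls, with a fold enrichment of 3.53 and a −log10 q-value of 0.15. The strongest ERG peak, in the KRT7 window, is not shown.
ERG, KRT7 proximal, chr12:52624698-52624806: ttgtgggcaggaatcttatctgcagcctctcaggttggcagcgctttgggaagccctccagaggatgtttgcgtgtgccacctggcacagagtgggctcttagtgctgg
ERG, KRT8 upstream, chr12:53301578-53301688: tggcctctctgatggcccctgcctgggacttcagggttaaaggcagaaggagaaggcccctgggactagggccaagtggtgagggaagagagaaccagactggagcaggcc
ERK2 in RWPE1-ERG, KRT7 intron, chr12:52635020-52635220: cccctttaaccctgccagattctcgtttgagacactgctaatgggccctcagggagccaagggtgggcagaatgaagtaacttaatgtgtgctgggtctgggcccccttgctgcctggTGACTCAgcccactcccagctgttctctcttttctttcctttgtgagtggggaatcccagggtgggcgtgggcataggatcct
ERK2 in RWPE1-vector, KRT19 intron, chr17:39681941-39682141: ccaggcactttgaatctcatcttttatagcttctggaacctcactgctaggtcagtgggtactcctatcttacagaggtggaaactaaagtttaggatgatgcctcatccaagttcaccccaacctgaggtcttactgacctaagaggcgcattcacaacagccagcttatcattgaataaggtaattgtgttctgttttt

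The strong ERK2 peak of KRT7 holds 1 AP-1 word, and the other 3 sequences hold none of the words. In windows of 201 bases, 2 of the 8 ERG peaks near the members held TGACTCA, beside 9.92% of the 847 ERG peaks on chromosomes 12 and 17. Of these, 1 was the strongest ERG peak, in the KRT7 window, and 1 lay in an exon of other KRT15 transcripts, upstream of the main KRT15 start. None of the 8 held AGGAAGTG, CGGAAGTG, GGAAGTGA or GTAAACA, beside 3.07%, 0.472%, 1.53% and 3.54%. Of the 29 ERK2 peaks near the members in RWPE1-ERG cells, 4 held TGACTCA, beside 8.82% of 635, 1 near KRT7 held CGGAAGTG, beside 1.10%, 1 near KRT19 held GGAAGTGA, beside 1.73%, and 0 held AGGAAGTG or GTAAACA. A match is a description of the letters in the window, not a bound site.

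Of the members, KRT8 alone has an entry in the promoter table from RefSeq (GRCh38.p14), for the start of a long transcript. The 250 bases before that start, chr12:52926470-52926719 on the minus strand of GRCh38, are shown because they hold an ETS word and lie in chromatin that was open in all 3 lines.
KRT8 long-transcript promoter: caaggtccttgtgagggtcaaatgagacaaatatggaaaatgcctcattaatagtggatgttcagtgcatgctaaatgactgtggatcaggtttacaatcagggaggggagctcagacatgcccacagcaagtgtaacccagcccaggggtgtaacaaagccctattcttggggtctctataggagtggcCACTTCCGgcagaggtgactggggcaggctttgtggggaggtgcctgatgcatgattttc

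They hold 1 match to CGGAAGTG on the opposite strand, a word found in 3.15% of the same stretch of 35116 promoters, and no match to the other words. The entry, with the 50 bases after the start, matches GRCh37 exactly once, from 53320204 to 53320503 on chromosome 12, so the start lies 21393 bp upstream of the main KRT8 start, between KRT8 and KRT18. An ATAC region of each of the 3 lists overlaps it. No ERG or ERK2 peak does, although ERK2 peaks of both lines begin within 1 kb upstream of it, at 53320725 in RWPE1-vector and 53320562 in RWPE1-ERG cells.

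H3K27me3 regions covered less of the simple keratin windows than of the median gene window in every line measured. Regions called against input covered 3.24% of the KRT7 window, 1.67% of the KRT8 and KRT18 window and 1.67% of the KRT19 window in RWPE1-vector cells, against a median of 5.33% over all genes, 3.17% over the 200 genes with the highest FPKM and 8.84% over 10234 genes below 0.1 FPKM in all lines. In RWPE1-ERG cells the cover was 0.380% for KRT7 and 0 for the others, against a median of 1.49% over all genes and of 0 over the 200 genes with the highest FPKM. In RWPE1-ERG S96E cells it was 0 for all 3 windows, against 3.02% and 0.646%. Little or no cover was thus common among highly expressed genes. A window held a region for 95.9%, 72.6% and 77.0% of genes in these lists, and for 3, 1 and 0 of the 3 member windows. The highest fold enrichment of any of these regions was 2.54, in the KRT19 window of RWPE1-vector cells. In these cells the 3 windows held 14 regions. A q-value of 0.01 or below was reached by 0 of the 14, beside 0.00589% of the whole list. The lists held 492265, 228233 and 252784 regions, so lower cover in RWPE1-ERG and RWPE1-ERG S96E cells went with shorter lists and its part was not tested.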

How the data were processed

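FPKM values come from the deposited Cuffdiff table of poly(A)-selected RNA-seq, which the authors made from reads aligned with TopHat2 and which gives 1 FPKM for each of 4 lines, pooled over 3 libraries. The deposited log2 ratio, test score, p-value and q-value columns of that table hold the authors' own comparisons and were not used. Peak lists are the authors' deposited MACS2 output (versions 2.1.2 and 2.2.7.1 where a header names one) on hg19 after Bowtie2, with DNA of 3 ChIP experiments pooled, and give a fold enrichment (a ratio to input or local background) and −log10 p-values and q-values. ATAC peaks were called with the broad setting. The methods state a p-value limit of 0.001, whereas the headers of the ERK2 lists record 0.01. A pair of lists attached to VCaP samples carry headers or peak names of other samples and were not used, and 0 columns of other per-sample values were left out. ATAC-seq of RWPE1-vector cells was not analysed here.

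Log2 ratios used a pseudocount of 1, and genes needed 1 FPKM or more in either line compared. With 1 pooled value a line, no test, SD or interval was possible, and 1.5-fold was the threshold for a call. Of all values, 5 differed between pairs of lines in the table, none of a member, and 2 gene names stood on 2 rows. Peaks were assigned to a gene where they overlapped its span in the table extended by 20 kb on both sides, and overlap means at least 1 bp. KRT8 and KRT18 share a window, and its peaks were counted once. Chromosome lengths of the GRCh37 reference held all peaks of chromosomes 12 and 17, with 0 beyond their ends. Annotation was GENCODE release 44 mapped to GRCh37, and the main transcript is the one marked MANE Select. Named genes were, in each list, those past 1.5-fold in a comparison that changes 1 construct and at 5 FPKM or more in the higher line, at most 6 a list, and the 3 genes of nearest profile to each member. KLK2, KLK3, FOXA1 and the markers named as near 0 were named beside the rule. Some items are not reported here. The members and lists were chosen with earlier results of these data known. The counting steps were tested on simulated data with Python 3.11.15, numpy 2.4.6 and pandas 2.3.3. The alternatives were other pseudocounts, scalings, folds, filters, windows and peak limits.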

Additional observations from a re-analysis of the deposited data

Results flagged for a closer look

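Results are listed here where the same construct moved a member in opposite directions in the presence and absence of the other. Each line gave 1 pooled value, so these differences were not tested. The mAKT effect on KRT8 was 0.11 on the log2 scale without ERG and −0.94 with it. For KRT18 the mAKT effect was 0.27 without ERG and −0.94 with it, and the ERG effect on KRT18 was 1.17 without mAKT and −0.043 with it. For KRT19 the mAKT effect was 0.14 without ERG and −0.55 with it. At least 1 value of each pair lay within 1.5-fold, and for KRT19 both did. The opposite signs depended on the scaling. With an equal FPKM sum the mAKT effect without ERG was −0.092 for KRT8 and −0.056 for KRT19, the same sign as with ERG, at −0.56 and −0.17. With median ratios the ERG effect on KRT18 with mAKT was 0.049. KRT7 had a negative mAKT effect both without and with ERG (−0.24 and −1.04).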

How the results depend on the processing

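No paired analysis was possible because the table gives 1 pooled value a line, with no replicate number, and for the same reason no library could be left out. Without a pseudocount or with one of 0.1, each count of members called was the same. Scaling each line by its median ratio brought the members higher in RWPE1-ERG/mAKT over RWPE1-vector cells from 1 to 2, with KRT8 at 0.63 on the log2 scale. Scaling to an equal sum of FPKM shifted every RWPE1-ERG over RWPE1-vector log2 ratio by −0.56 and every RWPE1-ERG/mAKT over RWPE1-ERG ratio by 0.38. No member that was called changed sign, but KRT7 was no longer higher with ERG, at 0.26, and 1 rather than 3 members was lower in RWPE1-ERG/mAKT over RWPE1-ERG cells, with KRT8 and KRT18 at −0.56 and −0.57. In RWPE1-mAKT over RWPE1-ERG cells 3 rather than 4 were lower, with KRT18 at −0.54. Leaving MIR and SNOR genes out of that sum, an alternative chosen after seeing the data, gave 2 members higher in RWPE1-ERG/mAKT over both RWPE1-vector and RWPE1-mAKT cells. At 2-fold the members called were 0 for RWPE1-ERG/mAKT over RWPE1-vector, 0 for RWPE1-ERG/mAKT over RWPE1-mAKT and 1 for RWPE1-ERG/mAKT over RWPE1-ERG cells. Without a filter on low FPKM the shares of all genes called were 3.58% (RWPE1-ERG over RWPE1-vector), 1.07% (RWPE1-mAKT over RWPE1-vector), 2.70% (RWPE1-ERG/mAKT over RWPE1-vector), 3.37% (lower, RWPE1-ERG/mAKT over RWPE1-ERG), 2.17% (RWPE1-ERG/mAKT over RWPE1-mAKT) and 3.65% (lower, RWPE1-mAKT over RWPE1-ERG), since unexpressed genes then count. The difference of the ERG ratio with and without mAKT was past 1.5-fold for 4 members without a pseudocount and with median ratios, but for 1 with an equal sum and for 2, KRT8 and KRT18, without MIR and SNOR genes in it. Both of these were also chosen after seeing the data, and all 4 values stayed below 0. The simple share of keratin FPKM in each line stayed within 1.5 times under the other keratin sets tried.

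Peak counts moved with the window by construction. ATAC peaks in the ERG, mAKT and ERG/mAKT lines were 18, 12 and 12 at 5 kb and 43, 36 and 29 at 50 kb, and VCaP ERG peaks 4 at 50 kb. At a q-value of 0.01 or below 0 ERG peaks were left in either line, and 2 ERK2 peaks in both RWPE1-vector and RWPE1-ERG cells. H3K27me3 cover over the 3 windows together was 2.12% in RWPE1-vector cells and became 0.592% with an equal number of regions from each list, 0.191% with regions of at least 2-fold and 1.21% at 5 kb. In RWPE1-ERG cells it was 0.108% and became 0 at 2-fold or at 5 kb. Pooled values and 1 library a peak list limit every statement on these genes.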
